A study of Mus musculus with 15 samples.

Results

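The AP-1 family genes are 10 genes of the basic leucine zipper class, Jun, Junb, Jund, Fos, Fosb, Fosl1, Fosl2, Atf3, Maff and Batf3. They were taken from a list of names, and the H3K27ac peaks described are those that overlapped the RefSeq span of a member or the 50 kb on either side of it. This left 188 of the 122375 peaks of the list (0.154%), none of them in the windows of 2 members. The study compared tumors of 2 genotypes of mice by CUT&RUN, an assay in which a nuclease tethered to an antibody releases the DNA around a chromatin mark, here acetylation of lysine 27 of histone H3. MCP tumors carried Myf6-Cre, which puts Cre under a muscle lineage gene, together with Cdkn2a(Flox/Flox), the conditional allele written Pax(3P3F/P3F) and the reporter R26-tdTom. TCP tumors had Tek-Cre, an endothelial driver, in its place. Both genotypes shared the floxed Cdkn2a, the P3F allele, which encodes the PAX3-FOXO1 fusion, and the red fluorescent reporter. The series has 6 MCP H3K27ac, 3 TCP H3K27ac, 3 MCP IgG and 3 TCP IgG libraries. Only the peak list of MCP H3K27ac replicate 5 was analysed here, so all values come from 1 library and there is no replicate error and no comparison of genotypes. Ages of the mice were not given in the labels. The tumors had been digested with enzymes for 1 hour at 37 °C and sorted as living cells before the assay.

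AP-1 is a dimer of a Jun protein with a Fos, ATF or related protein. Jun proteins can pair with each other or with Fos proteins, whereas Fos proteins need a partner. The dimers bind the letters TGAGTCA or TGACTCA, often at enhancers. They relay growth factor and stress signals that reach them through the ERK, JNK and p38 kinases. The letters TGANTCA, which were searched here, also take in the variants TGAATCA and TGATTCA. Several of the genes are immediate early genes, which are switched on within minutes of a stimulus without new protein synthesis. H3K27ac marks active promoters and enhancers, and it says where the chromatin was active, not how much RNA was made.

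Promoter sequences of the founding members Jun and Fos, and of Maff, which held the only TGACGTCA, are shown first, because the position of the peaks relative to them recurs in the results. They are the 250 bases before the RefSeq start site on the strand of the gene, from RefSeq in GRCm38.p6, which is the mm10 build of the peak list. Capitals mark TATAAA in Fos, TGACGTCA, the cyclic AMP response element, in Maff, and TGACATCA, a variant of it, in Jun. The last motif was chosen after the Jun sequence had been seen.
Jun, chr4:95052223-95052472, minus strand: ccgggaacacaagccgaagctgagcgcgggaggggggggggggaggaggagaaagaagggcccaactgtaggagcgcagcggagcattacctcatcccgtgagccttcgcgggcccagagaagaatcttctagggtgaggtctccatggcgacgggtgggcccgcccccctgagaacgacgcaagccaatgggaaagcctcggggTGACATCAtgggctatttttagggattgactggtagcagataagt
Fos, chr12:85473640-85473889, plus strand: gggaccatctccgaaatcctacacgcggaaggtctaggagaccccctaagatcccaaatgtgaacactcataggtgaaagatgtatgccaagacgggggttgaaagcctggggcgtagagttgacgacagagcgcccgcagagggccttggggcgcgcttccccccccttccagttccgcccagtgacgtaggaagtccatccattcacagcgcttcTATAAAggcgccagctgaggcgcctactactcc
Maff, chr15:79347270-79347519, plus strand: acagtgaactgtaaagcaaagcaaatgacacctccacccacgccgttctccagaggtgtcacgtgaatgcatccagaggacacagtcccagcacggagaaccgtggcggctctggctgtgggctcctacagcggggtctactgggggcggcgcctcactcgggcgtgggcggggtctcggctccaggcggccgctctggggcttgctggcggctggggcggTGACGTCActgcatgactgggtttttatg
Among the 11 promoter sequences of 9 members, TGANTCA, searched on both strands and equal to its own reverse complement, was in 0, against 6.75% of 32851 promoters. TGACGTCA was in 1, against 1.55% of all promoters. TGACATCA, searched on both strands, was in 2 (Jun and another start site of Maff), against 2.93%. TATAAA, on the gene strand only, was in 1 (Fos), against 7.59%, and the CArG box, the site of serum response factor, searched on both strands, was in 0, against 1.47%. None of these motifs overlapped another in the member sequences. Only these 250 bases and exact letters were searched, so a count of 0 does not show that a gene lacks the motif elsewhere.

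A promoter was the 2 kb on either side of a start site, the rest of the span was the gene body, and what remained of the window was the flank. Of the member peaks, 21 were at promoters, 5 in gene bodies and 162 in flanks. Promoter peaks were listed at 8 of the 10 members, Jun, Junb, Jund, Fos, Fosl1, Fosl2, Atf3 and Maff, and at neither Fosb nor Batf3. Over all 21000 protein-coding genes 45.6% had a promoter peak. Gene body peaks were listed at 3 members (Jun, Fosl1 and Fosl2). The background was 32.2% of all genes, and 13.4% of the genes no longer than the longest member, Fosl2 at 21369 bp. All 10 members had a flank peak, against 72.2% of genes.

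The number of peaks per window ran from 7 at Batf3 to 32 at Jun, with a median of 19.5, whereas the median over all genes was 7 with quartiles of 1 and 16. Fosl1 had 26 peaks, Fosb 23, Jund 22, Junb 21, Maff 18, Fos 17, Fosl2 12 and Atf3 10. Thus 9 members lay above the gene median and Batf3 on it. Part of this count belonged to neighbouring genes. Of the 162 flank peaks, 47 were at the promoter of another gene (29.0%, Wilson 95% interval 22.6 to 36.4), and without such peaks the median was 14 for members and 4 for all genes. That interval takes peaks as independent, although many were neighbours in 1 window. Per unit of length, peaks in the member windows were denser than over their whole chromosome by a median factor of 4.36, against 1.2 for all genes. Of the 6 other lists of the pathway, 5 had medians of 14.5 to 17.5 peaks per window, below that of the members, and the list of partners had 30. Per 10 kb the members' median was 1.85, against 0.978 to 1.72 in these lists, and 0.561 over all genes.

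**Figure D1:**
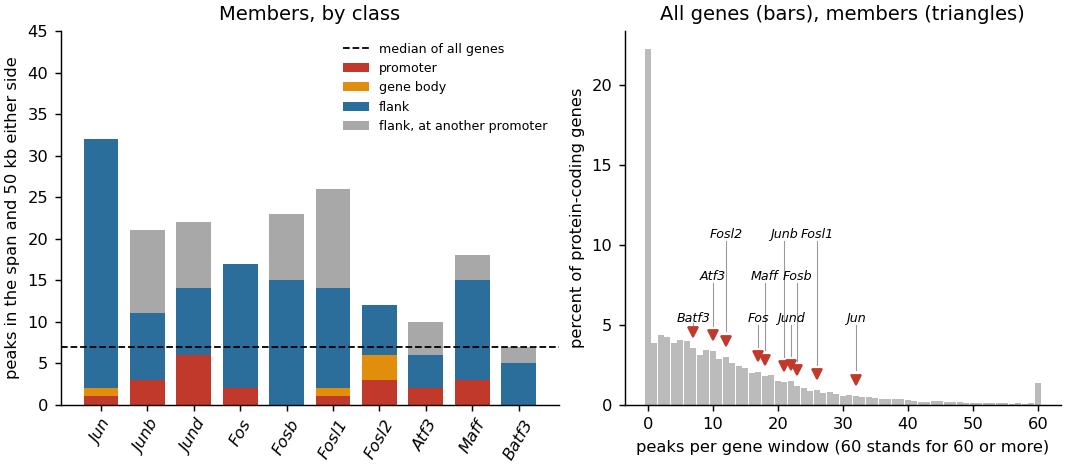
Left, number of H3K27ac peaks in the span and 50 kb flanks of each AP-1 family gene, stacked by class, with the median of all protein-coding genes (7) as a dashed line. Right, percent of protein-coding genes (bars) by peaks per window with the members as triangles, where Batf3 sits at 7 and Jun at 32.

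In strength the member peaks were like the list. The caller gives each peak a fold of H3K27ac over the local IgG background at its summit, which was 5.22 at the median in the member windows and over all peaks, with quartiles of 4.36 and 6.51 in both. The number of H3K27ac fragments under the summit, solved from the fold and p-value of each peak, had a median of 14 in the member windows (range 7 to 37) and 13 over all peaks. Intervals for single peaks are exact 95% Poisson intervals and cover counting error only. The members' strongest promoter peaks had a median fold of 6.72, against 7.24 over all genes with a promoter peak.

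Jun encodes the founding Jun protein and is itself an AP-1 target. It lies at chr4:95049036-95052222 on the minus strand. It had 1 promoter peak, at chr4:95052838-95054824, which at 1987 bp was the widest of all member peaks. Its fold was 10.6, the highest promoter fold in the family and above that of 84.0% of genes with a promoter peak, with 24 fragments (15.4 to 35.7). The summit lay 821 bp upstream of the start site. The peak in its single exon, 2459 bp downstream of the start, was weaker, with a fold of 4.28 and 9 fragments.

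The larger part of the Jun peaks was far upstream. A run of 27 peaks stretched over chr4:95073457-95108211, all upstream of Jun and all nearest to its start site, with summits 21293 to 55573 bp away. It went on past the 50 kb flank, so some of its peaks are not among the 32 of the Jun window. The cluster values below use the whole run. The strongest were at chr4:95100178-95100926 (fold 9.53, 21 fragments) and at chr4:95098330-95099566 (fold 9.10, 22 fragments), with counting intervals (13.0 to 32.1 and 13.8 to 33.3) that overlapped that of the promoter peak. Peaks were joined into clusters at the default distance of ROSE, the enhancer caller of the study, without those wholly within 1 kb of a start site, which gave 20840 clusters. Ranked by summed peak score, the upstream Jun cluster ranked 430 and was among the 516 above the slope limit that is used to call super-enhancers. The score is a scaled −log10 of the q-value and stands in for read signal, which the list does not hold. A place above the limit is therefore not a super-enhancer call of the study. No gene other than Jun had a start site in this window, and Jun was the nearest gene of 37 peaks, more than 98.0% of genes.

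The cluster did not reach the Jun span. A cluster above the limit overlapped the span of 0 of 10 members, against 2.95% of genes, and lay in the span or flanks of 1 (Jun), against 5.74% of genes. Clusters over the spans of the other members ranked 1009 (Fos), 1450 (Jund), 2631 (Junb), 2673 (Fosl1) and 3734 (Fosl2), and that over Jun itself ranked 4373. The spans of Fosb, Atf3, Maff and Batf3 had no cluster. When clusters were ranked by fold times width, a setting chosen after seeing the data, the upstream Jun cluster ranked 647 and was still above the limit.

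**Figure D2:**
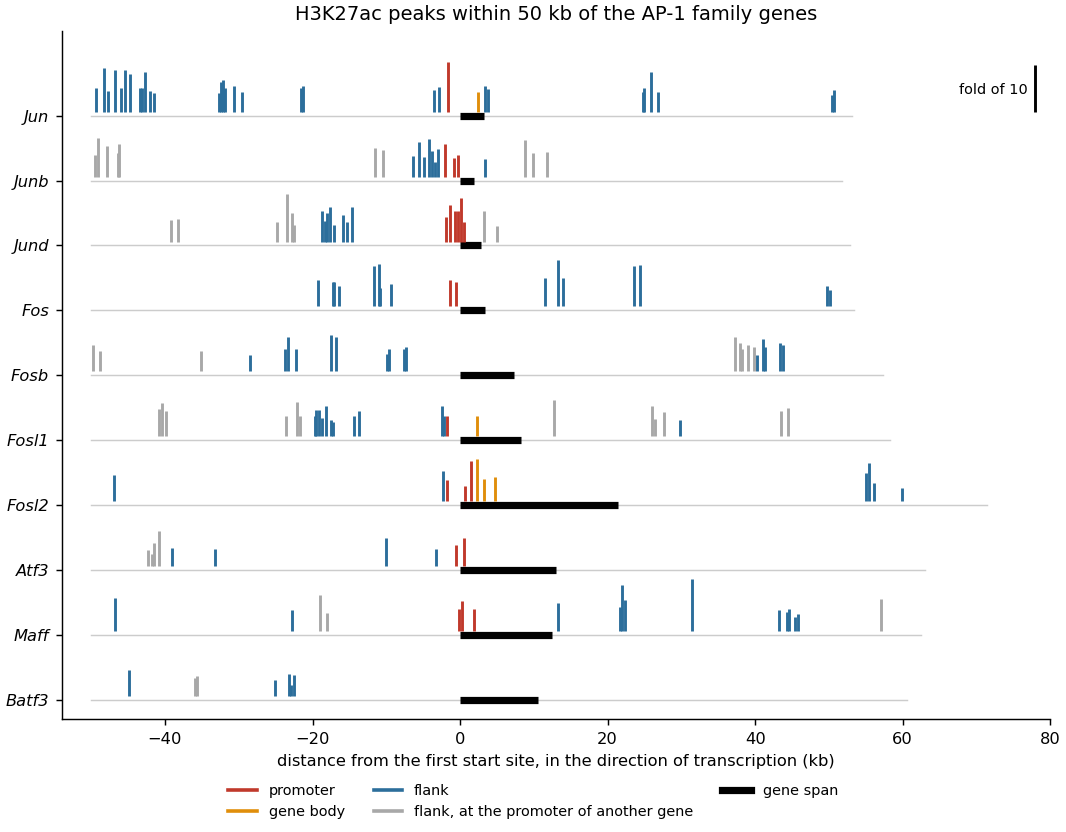
H3K27ac peaks around the 10 AP-1 family genes, by distance in kb from the first start site in the direction of transcription. Each vertical line is a peak, its height is the fold over IgG (scale bar, fold of 10), its color the class, and the black bar is the gene. The run upstream of Jun, the paired groups on both sides of Fos and the empty span of Batf3 can be seen.

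Junb and Jund encode the other Jun proteins, which can act against Jun in some cell types. Junb, at chr8:84976909-84978748 on the minus strand, had 3 promoter peaks, all upstream, with summits 399, 665 and 2097 bp from the start. Their folds were 4.76, 4.03 and 7.06 and their fragments 15, 18 and 17, so the intervals of the 3 overlapped widely. The run went on outside the promoter window, with a fold of 8.17 and 20 fragments at 4268 bp upstream and a fold of 7.41 and 24 fragments at 5906 bp. Among the 18 flank peaks of Junb, 10 were at the promoters of Prdx2, Hook2, Rnaseh2a, Get3 and Trir. The best of these had a fold of 8.24, at Trir.

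Jund, at chr8:70697739-70700616 on the plus strand, had 6 promoter peaks, the most of any member, from 1778 bp upstream to 505 bp downstream. The strongest, at chr8:70697744-70698079, had a fold of 9.47 and 31 fragments (21.1 to 44) with its summit 229 bp inside the exon. Its left edge was 5 bp from the start site. The other 5 had folds of 4.24 to 7.80 and 11 to 17 fragments. In the flank, 8 of 16 peaks were at other promoters, among them a peak with a fold of 10.2 in an intron of Lsm4. The others of high fold, both 7.37 with 16 fragments, were 14401 and 17736 bp upstream and nearer to Lsm4 than to Jund. GENCODE places the start of Jund further into the gene, at position 70698949, which left 5 promoter peaks and the same highest fold.

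Fos encodes the founding Fos protein and is the classic immediate early gene. It lies at chr12:85473890-85477274 on the plus strand. Its 2 promoter peaks were both upstream, with summits 1435 and 474 bp from the start. The former had the most fragments of all member peaks, 37 (26.1 to 51.0), but also an IgG background of 5.00 scaled fragments, where the median over all peaks was 1.09, so its fold was 5.62. The promoter peak at 474 bp had 18 fragments and a fold of 5.31.

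The strongest peaks of Fos were in its flanks and in groups on both sides. Upstream they had folds of 9.10 (20 fragments, 12.2 to 30.9) at 11059 bp and 8.67 at 11587 bp. Downstream the folds were 9.98 (26 fragments, 17.0 to 38.1) at 12964 bp, 8.67 at 23511 bp and 8.93 at 24330 bp. Each of these exceeded the fold of both promoter peaks. None was at another gene's promoter, since no other gene had a start site in the window, and all 17 peaks of the window were nearest to Fos. The peaks are numbered in the list, and 3 numbers are absent 17295 to 19128 bp upstream of Fos. What they held is not known here, and no other member window had such a gap.

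Fosb, at chr7:19302696-19310045 on the minus strand, encodes the Fos protein best known from long-lasting responses in neurons. It had neither a promoter nor a gene body peak. Its nearest peak lay 7179 bp upstream, at chr7:19317195-19317430, with a fold of 5.34 and 23 fragments. The strongest peaks away from other promoters were 16635 bp (fold 7.41, 24 fragments) and 17489 bp (fold 7.80, 17 fragments) upstream. Of its 23 flank peaks 8 were at other promoters, the strongest at Vasp with a fold of 7.33 and 32 fragments.

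Fosl1 and Fosl2 encode the Fos-related antigens FRA-1 and FRA-2, which lack the activation domain of Fos. Fosl1, at chr19:5447698-5455938 on the plus strand, had the weakest promoter peak of the members that had 1, with a fold of 4.38 and 10 fragments (4.80 to 18.4) at 1796 bp upstream. Its intron peak was alike, with a fold of 4.36 and 9 fragments. Just outside the promoter window, 2417 bp upstream, lay a peak with a fold of 6.51 and 16 fragments. Of its 24 flank peaks, 12 were at the promoters of neighbours, Fibp (fold 7.80), AI837181 and Drap1 (7.41) and 4930481A15Rik (7.13) among them.

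Fosl2, at chr5:32136472-32157840 on the plus strand, was the member with the most gene body peaks. Of its 3 promoter peaks the strongest, at chr5:32137538-32138392 in an intron, had a fold of 8.67 and 19 fragments. The next peak downstream, at chr5:32138477-32139024 in the same gene's intron, had a fold of 9.10 and 20 fragments. The other 2 gene body peaks had folds of 4.77 and 5.22. Only 6 flank peaks were listed, none at another promoter, and the strongest was 55577 bp downstream of the start (fold 8.29, 27 fragments).

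Atf3 encodes a stress-induced repressor, and Batf3 a factor required for a class of dendritic cells. They are neighbours on chromosome 1 and point towards each other. Atf3, at chr1:191170296-191183333 on the minus strand, had promoter peaks 517 bp downstream of its start, in an intron (fold 6.09, 15 fragments), and 544 bp upstream (fold 4.60, 13 fragments). Its strongest peak away from other promoters was 10006 bp upstream (fold 5.94, 19 fragments). Batf3, at chr1:191098414-191108943 on the plus strand, had neither a promoter nor a gene body peak. Its 7 flank peaks lay in or near Nsl1 and Tatdn3, with folds of at most 5.64, and for 0 of them was Batf3 the nearest gene.

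Maff encodes a small MAF protein, which has no activation domain of its own. It lies at chr15:79346621-79359076 on the plus strand and has 4 start sites. Its 3 promoter peaks had folds of 4.79, 6.37 and 4.71 and 10, 19 and 10 fragments. The highest fold of all member peaks, 11.2 with 25 fragments (16.2 to 36.9), was 29630 bp downstream of the nearest Maff start, and a fold of 9.96 with 22 fragments was at 20164 bp. Both summits were in introns of the neighbouring gene Tmem184b.

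**Figure D3:**
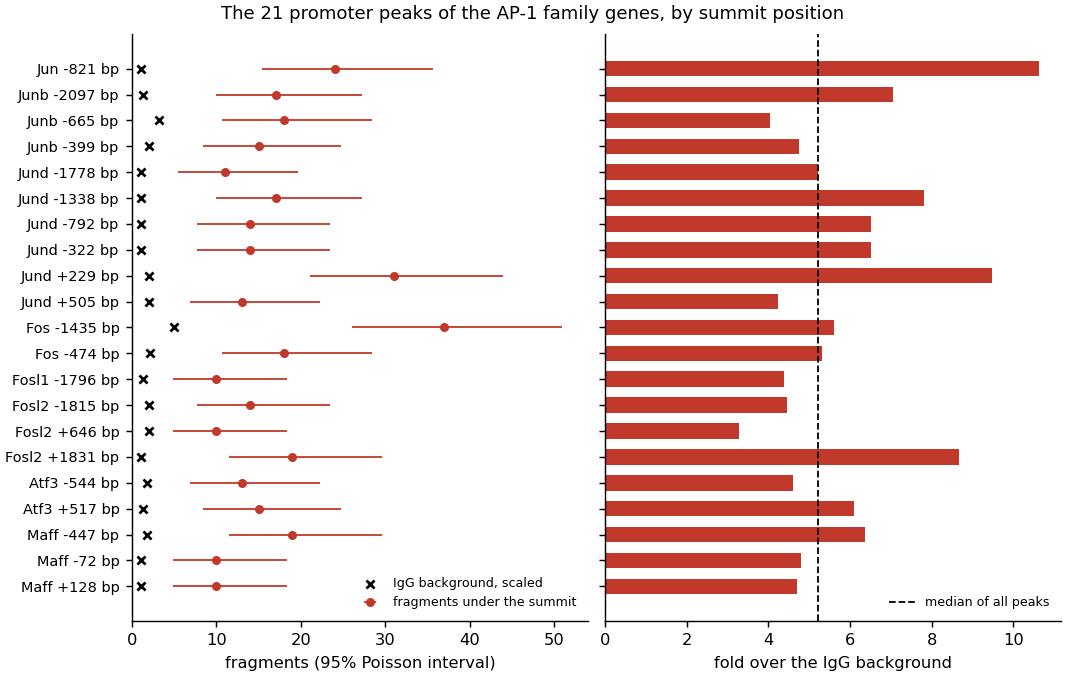
The 21 promoter peaks of the AP-1 family genes, labelled by gene and by the position of the summit from the nearest start site in bp (minus is upstream). Left, H3K27ac fragments with 95% Poisson intervals (red) and the IgG background (crosses). The crosses are in IgG fragments, to which the H3K27ac fragments are scaled only for the fold. Right, fold over IgG with the median of all peaks, 5.22, dashed. The Fos peak with 37 fragments has the highest background.

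The summits of the promoter peaks lay mostly upstream of the nearest start site. This was so for 15 of the 21 (71.4%), against 40.7% of the 27973 promoter peaks of all genes. The 15 include a Maff summit 447 bp before a later start, in an intron of Maff. With the first start site only, 14 of the 21 were upstream. Peaks of the same gene are counted separately, 6 of them at Jund. The median distance was 646 bp, against 691 bp, and 33.3% were within 500 bp, against 34.2%. No member had a start site under a peak, and over all genes this was so for 3.78%. With GENCODE start sites the count was again 0, and again 8 of 10 members had a promoter peak.

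Steps of the highest GC content rarely lay in a peak. In 100 bp steps across the promoter windows, 0 of 44 member steps with at least 70% GC lay in a peak. Among steps of 60 to 70% GC 6.25% of 112 did, and among those of 50 to 60% GC 24.1% of 141 did. The shares over all genes were 1.45%, 10.2% and 10.1%. At 40 to 50% GC and below 40% GC the member shares were 25.7% and 24.1%, and those of all genes 9.63% and 7.56%. At the 8 members with a promoter peak the shares were 0% of 34 steps, 7% of 100 and 31.2% of 109. Over all genes with a promoter peak, 2.24% of the steps with at least 70% GC lay in a peak, against 18.9% at 60 to 70% and 22.5% at 50 to 60%. The 500 bp on either side of the start had a GC content of 69.8% at Batf3, 64.2% at Fosl2, 62.5% at Jun and 61.9% at Fos. At Jund it was 46.7% around the RefSeq start, 229 bp from its strongest summit, but 68.3% around the GENCODE start, 981 bp from it. At Maff it was 50.0% around the first start site, 452 bp from the strongest summit, and 63.9% around the next, 447 bp from it. The GC content at the start therefore depended on the start site taken at these genes. The labels name a library kit for single-stranded and low-input DNA. Whether base composition had a part in the missing start sites, or in the absence of promoter peaks at Fosb (59.2% GC) and Batf3, was not tested.

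**Figure D4:**
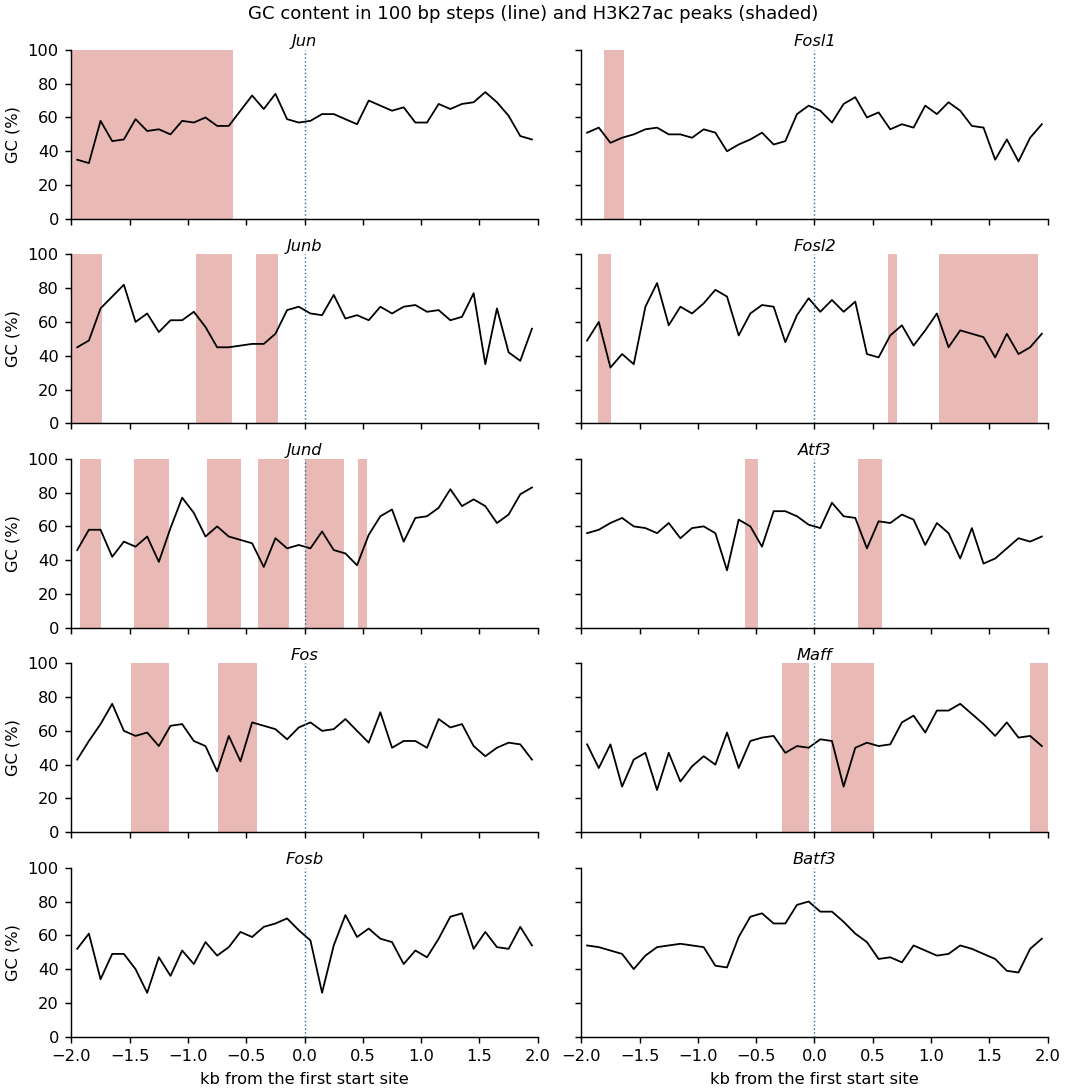
GC content in percent by 100 bp step (line) over the 2 kb on either side of the first start site (dotted) of each AP-1 family gene, with H3K27ac peaks shaded. Upstream is to the left. No shaded block covers a start site, and the block of Jund begins 5 bp after it.

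Over all genes, the share with a promoter peak went up with the CpG content of the 500 bp on either side of the start, being 4.14% in stratum 1 of 10 and 73.1% in stratum 10. Most members are CpG-rich. By their first RefSeq start, Jund and Maff were in stratum 3, where 17.5% of genes had a promoter peak. The GENCODE start of Jund would put it in stratum 10 (73.1%), and the other RefSeq starts of Maff in strata 6 (64.0%) and 9 (70.6%). The genes of the members' strata had a promoter peak in 56.8% of cases, or 60.1% when the strata were weighted by their number of members. Both shares put Jund and Maff in stratum 3 and were not recomputed with their other starts, which would raise them. A count of 8 of 10 is close to the 64.0% to 73.1% of the CpG-rich strata 6 to 10.

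Sites for AP-1 itself were searched as TGANTCA, and 17 member peaks held TGAGTCA or TGACTCA. Sites so searched were in 25 of the 188 member peaks (13.3%, Wilson 95% interval 9.17 to 18.9), which held 26 sites. The share was 11.8% over all peaks and 11.3% over peaks of the same length classes. The interval takes peaks as independent, which neighbouring peaks of 1 window may not be, so it is not a test. Among stronger peaks the member share was the lower. It was 16 of 101 (15.8%) against 17.2% of all at −log10 q of at least 5, and 8 of 55 (14.5%) against 22.9% in the strongest 25%. These member counts are small, peak length was not matched here, and the difference was not tested. Atf3 and Fos had their single site in a promoter peak, Batf3 had no site, and the sites of the other members were in flank peaks except 1 of the 4 at Fosl1, which was in its promoter peak. The 3 promoter sites, TGAGTCA at Atf3 and TGAATCA at Fos and Fosl1, are printed below on the plus strand. Each has up to 60 bases on either side, clipped to the peak, with the site in capitals. The promoter sites are followed by 3 sites of the upstream Jun cluster, in which 7 of 27 peaks (25.9%) held a site, 6 of them in the Jun window. That cluster was singled out by its rank, and its share was neither matched for peak length nor tested.
Atf3 intron, chr1:191182751-191182851: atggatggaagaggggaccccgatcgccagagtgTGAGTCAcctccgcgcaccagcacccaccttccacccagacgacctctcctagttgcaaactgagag
Fos upstream, chr12:85473368-85473482: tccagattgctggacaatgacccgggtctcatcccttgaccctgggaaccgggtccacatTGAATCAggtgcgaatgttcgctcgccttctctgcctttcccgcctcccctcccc
Fosl1 upstream, chr19:5445934-5446060: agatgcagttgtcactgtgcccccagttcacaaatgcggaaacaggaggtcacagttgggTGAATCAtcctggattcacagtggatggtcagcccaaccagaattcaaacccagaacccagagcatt
Jun upstream, chr4:95084208-95084290: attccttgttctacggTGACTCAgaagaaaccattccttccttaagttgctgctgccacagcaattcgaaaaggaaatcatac
Jun upstream, chr4:95098372-95098498: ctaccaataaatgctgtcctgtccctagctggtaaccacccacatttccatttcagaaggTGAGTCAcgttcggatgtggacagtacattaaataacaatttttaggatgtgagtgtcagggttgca
Jun upstream, chr4:95100849-95100926: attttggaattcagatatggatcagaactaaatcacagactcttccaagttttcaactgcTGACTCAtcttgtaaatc
The Atf3 site was 28 bp from the summit and the Fos site 15 bp, whereas those of the strong Jun peaks with folds of 9.10 and 9.53 were 959 and 522 bp from the summit. A match of the letters does not show that a factor was bound.

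By distance, summits were set per 10 kb beside all genes for the 10 members, and beside genes with a promoter peak for the 8 members that had 1, none of it tested. Within 2 kb of the first start site the 10 members had 5 summits per 10 kb, against 2.96 at all genes, and the 8 had 6.25, against 6.50 at genes with a promoter peak. From 2 to 10 kb the values were 1.88 against 0.740 for the 10, and 2.03 against 1.33 for the 8. From 10 to 25 kb they were 2 against 0.731, and 2.17 against 1.15. From 25 to 50 kb they were 1.4 against 0.769, and 1.3 against 1.10. Of the 70 summits in the last band, 21 were those of Jun.

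The wider pathway was read from lists of genes named for it, each count beside the share with a promoter peak over genes of the same CpG strata, weighted by the genes of the list. Over all genes that share was 45.6%. Of the 18 JNK, ERK and p38 kinases and their activators, which carry signals to AP-1, 16 had a promoter peak (88.9%, against 66.3% in the same strata). The highest folds were at Map2k7 (13.0), Map2k4 (9.77) and Map2k3 (9.54), which encode kinases that activate JNK or p38. Map3k5 and Mapk10 had none. Serum response factor and its partners, which switch on Fos, had a promoter peak at 6 of 7 genes (strata 66.9%), led by Elk4 (13.3), Srf (11.2) and Elk3 (10.1), with none at Myocd, a cofactor of smooth muscle and heart.

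Among 23 other AP-1 and related bZIP genes, 16 had a promoter peak (69.6%, against 62.3% in the same strata), with the highest folds at Crem (15), Creb1 (14.2) and Atf1 (10.1), which encode the CREB family. Among 8 partners and inhibitors 7 had 1 (87.5%, against 68.7%), led by Fbxw7 (10.8), which targets Jun for degradation, the acetyltransferase gene Ep300 (10.4) and the chromatin remodeler gene Smarca4 (9.53). Ncoa1 had none. The other immediate early genes were marked at 9 of 14 (64.3%, against 68.3%), so that these genes and the related bZIP genes were near the share of their strata. The median of the highest promoter fold of the immediate early genes, 5.04, was the lowest of the lists of the pathway. Ier2 (11.5), Ier5 (9.96) and Ier3 (9.49) were the strongest, and Arc, Ccn2, Egr3, Npas4 and Nr4a1 had no promoter peak. Of 14 genes with known AP-1 sites 8 had a promoter peak (57.1%, against 34.7%), with the highest folds at the adhesion receptor Cd44 (11.2), the urokinase receptor Plaur (9.53) and Spp1 (8.71).

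**Figure D5:**
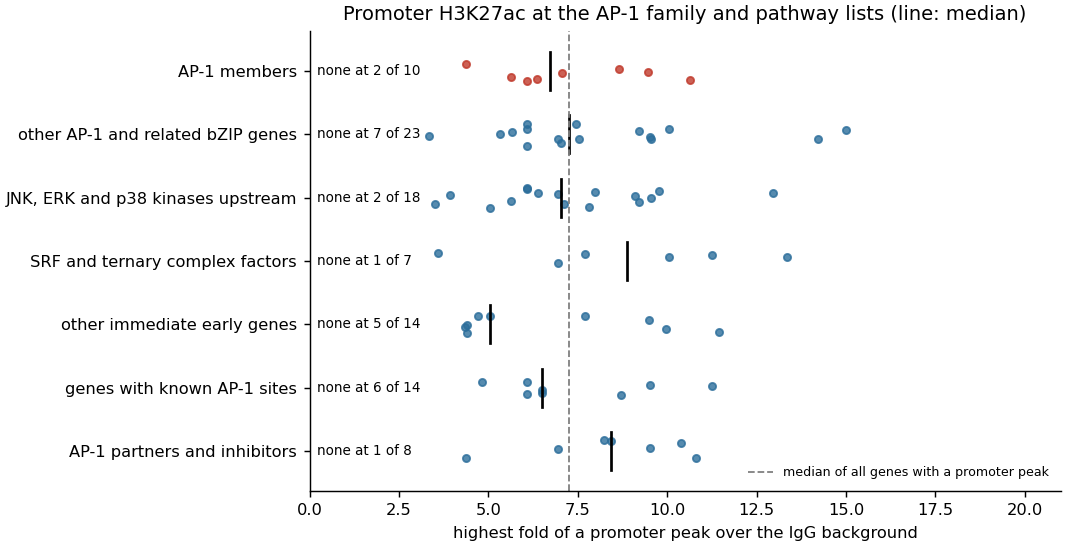
Highest fold over IgG of a promoter peak for each gene with 1 (points) in the AP-1 family and 6 lists of its pathway. Vertical bars are medians, the dashed line is the median of all genes with a promoter peak (7.24), and the text at the left counts genes without a promoter peak. The AP-1 family median, 6.72, lies between those of the other immediate early genes and the partners.

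As a check of the cell type, 1 of 12 myogenic markers (Myf6), 0 of 6 endothelial, 1 of 6 immune (Cd68) and 1 of 4 fibroblast markers (Pdgfra) had a promoter peak, with 32.0%, 29.4%, 17.6% and 22.8% in genes of the same CpG strata. Of the housekeeping genes 5 of 6 did, against 63.8%. Promoter peaks were absent at the myogenic markers Myod1, Myog and Des. Flank peaks were at 9 of the 12 myogenic, 5 of 6 endothelial, 5 of 6 immune and 2 of 4 fibroblast markers, against 72.2% of all genes. Gene body peaks were at 1 myogenic, 4 endothelial, 0 immune and 0 fibroblast markers, against 32.2% of all genes. The windows of Myf6 and Myf5, both on chromosome 10, held 36 and 28 peaks. How many peaks these windows shared was not counted, so the counts are not to be taken as separate. What part other cells had in the peaks of the AP-1 genes was not tested. Fewer cells with a mark and less mark per cell cannot be told apart in a bulk library.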

How the data were processed

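The single list analysed holds peaks of H3K27ac CUT&RUN from MCP tumor cells. Its peak names carry the number that the labels give for MCP H3K27ac replicate 5. The submitters' processing notes name BWA, SAMtools, MACS2, mm10 and dm6, while the study's methods name another aligner and an earlier MACS release with the IgG library of each sample as control. The sources used here do not settle which made the list, nor its threshold (highest q-value 0.0471). For each peak the authors deposited a score, the fold over the local IgG background at the summit, and −log10 of the p-value and q-value. Those columns were used as deposited.

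MACS computes fold and p from the fragments over the summit, the IgG background and 1 scaling factor. Fold and p together were therefore searched for the fragment number that gives both. At a scale of 0.8845 (an H3K27ac depth 1.13 times that of IgG), 99.99% of peaks gave a whole number within 0.01 in −log10 p, and with a scale 3% off 2.67% did. In the member windows 179 of 188 peaks had 1 solution. The numbers are inferred, and without molecular identifiers fragments may be copies of 1 molecule. Total depth is unknown.

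Genes and 31601 start sites were curated RefSeq transcripts of GRCm38.p6. Overlap was at least 1 bp. Members were described with all promoter peaks and the 2 other peaks of highest fold away from other promoters. Of each list, the 3 genes with the highest promoter fold were named, and those without a promoter peak where they were 5 or fewer. No test was made, since 1 list has no replicates. Values stand beside those of all genes. In the list of partners, 2 genes are not reported here, and its values are without them. Members and lists were chosen with earlier results of these data known. Steps were tested on simulated data. Python 3.11.15, pandas, scipy and pysam were used. Alternatives were the peak threshold, windows, start sites, chromosomes, stitching and motif letters.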

Additional observations from a re-analysis of the deposited data

How the results depend on the processing

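No paired analysis was possible because the values come from 1 library and no test was made. With only peaks of −log10 q of at least 5, the member windows held 101 peaks (12 promoter, 1 gene body, 88 flank), the median per window was 11.5 for members and 4 for all genes, 1 member had a gene body peak, 37.9% of all genes had a promoter peak, 17.2% of all peaks and 15.8% of member peaks held an AP-1 site, and 4 of the other immediate early genes had a promoter peak. With the strongest 25% of peaks these values were 55 (7, 1 and 47), 6 and 2, 1, 29.3%, 22.9% and 14.5%, and 4, and 9 kinase genes and 3 genes with known AP-1 sites had a promoter peak. Flanks of 25 kb gave 118 peaks, 92 of them in flanks, medians of 11.5 and 4, and 21.7% of flank peaks at other promoters. Flanks of 100 kb gave medians of 27.5 for members and 14 for all genes. The share of all genes with a promoter peak was 43.5% with windows of 1 kb, 44.3% with the first start site only and 44.2% without chromosomes 1, 6, 11 and 15, and 56.8% among genes of the members' CpG strata. The members with a promoter peak were 7 at −log10 q of at least 5, 6 in the strongest 25% and 7 with windows of 1 kb. They were 8 with the first start site only, and 6 of the 7 members left without those chromosomes. Without those chromosomes, 13.7% of member peaks and 11.4% of all peaks held an AP-1 site, and 10 related bZIP genes had a promoter peak. Leaving out peaks at other promoters gave medians of 14 for members and 4 for all genes. With TGAGTCA or TGACTCA only, 9.04% of member peaks and 8.21% of all peaks held a site. Within 100 bp of the summit, 9.57% of member peaks and 8.05% of all peaks held TGANTCA. The gene body share of 13.4% among shorter genes, the GENCODE start sites, the GC content by start site, the CpG shares of the lists and the ranking by fold times width were chosen after seeing the data. Precision is limited by the 7 to 37 fragments behind a member peak.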
